A study of Homo sapiens with 30 samples.

Results

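BEAS-2B cells, immortalized epithelial cells derived from the human bronchus, were compared between 6h50 min and 24 h after exposure to whole birch pollen. The members are the 3 pollen arrays labelled 6h50 min and the 3 labelled 24 h, which are 6 of the 30 arrays of the series. All cells grew on Transwell membranes at an air-liquid interface, and the pollen groups received 10 mg of whole pollen dispersed with pressurised air in a sedimentation chamber. The mock groups, labelled as air, went through the same handling with a mesh over the cells that, per the study's methods, kept pollen out, and their 3 arrays at each of the same times are given beside the pollen arrays. Each array held the Cy3-labelled RNA of 1 sample, with n = 3 in every group. The study's methods say that exposures were repeated independently on different days, but the labels give only replicate numbers. The p-values rest on each probe's spread within groups, pooled over the 10 groups and 30 arrays of the series. They thus do not come from the printed values of the 6 arrays alone, and that spread may be technical in part. As a model, the line is a single immortalized cell type grown without the leukocytes and other cells of the airway wall, and it does not form the ciliated, mucus-secreting layer of the bronchus.

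Pollen grains land on airway epithelium as particles that also release proteins and lipids. Epithelial cells commonly answer such contact first with immediate early transcription factors, growth factor feedback genes and NF-kB dependent chemokines, whose transcripts are short lived. Later hours bring programmes with slower transcripts, among them the cell cycle, keratin and matrix genes, lipid synthesis and the targets of p53. The comparison of 24 h with 6h50 min asks which transcripts of exposed cells were still moving after the early hours, and how the same transcripts moved in cells that met only air.

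The arrays carry their own limit for this question. The 6 arrays of 6h50 min, pollen and mock, filled a slide of their own, and the 6 arrays of 24 h lay on another slide together with 2 arrays of 2h25 min. Time and slide cannot be told apart in the change of the pollen arrays or in that of the mock arrays, whereas the difference between those changes is formed within slides. For 8 probes of spike-in RNAs, the pollen change between the times ran from −0.43 to 0.15 log2 units with a median of −0.14, and the mock change from 0.29 to 0.82 with a median of 0.48. The percentile used for scaling was 613 to 860 intensity units on the pollen arrays of 6h50 min and 1055 to 1202 on those of 24 h. Between 44.7% and 51.4% of the probes of these 6 arrays were well above background, and 0 were saturated. Mock replicates 1 and 2 of 6h50 min each had an area of dim spots with 4.72% and 3.17% of the tested probes, and no pollen array had one.

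The epithelial label was checked against marker genes. All 7 epithelial markers were above background on all 6 pollen arrays, with KRT7 between 6.18 and 7.48 and EPCAM between 1.84 and 2.18. These are log2 values over the 75th percentile of the array, so that 0 is the brightness of that percentile. The mesenchymal filament VIM lay between 5.91 and 6.47, and 6 of 7 mesenchymal markers were above background on all 6 arrays. The ciliary genes FOXJ1 and DNAI1 were above background on 1 and 0 arrays and the mucin MUC5B on 0. Of 4 tested markers of ciliated and secretory cells 3 were called higher at 24 h, TUBB4B, SCGB1A1 and BPIFA1, and the signals of the 7 listed genes summed to between 5.37 and 6.02 times the percentile at 6h50 min and between 7.44 and 8.85 times at 24 h. Most of that sum was TUBB4B, which encodes a tubulin. MS4A2, which marks mast cells, was above background on 0 arrays. Of 3 tested leukocyte markers 2 were called higher, PTPRC at 1.31, between −6.08 and −3.95 on the 6 arrays, and CD3E, above background on 1 array. The summed leukocyte markers of 5 genes lay between 0.779 and 0.929 times the percentile at 6h50 min and between 0.755 and 0.774 at 24 h. The epithelial markers summed to between 214 and 282 times the percentile at 6h50 min and between 146 and 174 at 24 h, the 7 mesenchymal ones to between 64.3 and 75.8 and between 77.5 and 92. KRT5, KRT7 and CDH1 were called lower among the epithelial markers and THY1 and CDH2 among the mesenchymal ones. The part of these markers in the changes described here was not tested, and in RNA of a whole culture fewer cells of a kind and less RNA per cell cannot be told apart.

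Between 6h50 min and 24 h a large part of the transcriptome of exposed cells differed. Of 32100 tested probes limma called 11622, which is 36.2%, with 0.05 as the threshold for the adjusted p and 1.1-fold for the change. Of these 6982 were higher, 21.8% of the tested probes, and 4640 lower, 14.5%. The 3 arrays of 1 time all lay above those of the other at 49.7% of the tested probes. Lack of overlap at a gene is to be read beside that share, and it was required of the genes named for the largest changes. At 3366 of the called probes the change was at least 2-fold, 2677 higher and 689 lower. With 1 probe per gene 5398 genes were higher, 22% of the 24493 tested, and 3600 were lower, 14.7%. The median log2 difference over all tested genes was 0.12, against which the pollen medians of gene lists are set here. Counts of list members called in pollen are to be read beside the shares of 22% and 14.7%. The split of higher and lower calls differed between scalings. Quantile normalization, which sets every array to the same distribution by construction, gave 5284 higher and 5295 lower probes. It moved the median over all probes from 0.115 to 0.013. The median over probes above background on all arrays gave 7344 and 4390, with a median change of 0.131. The percentile over each array's own probes gave 1718 and 900 of 2618 calls, with a median change of 0.074. There, 1 array of the other design, from another group, was scaled over the 33873 shared probes and the rest over 58201. That array can thus be offset from its group, so that the 2618 calls do not measure the dependence on scaling alone. The split also differed with the probes tested. With only the 24750 probes above background on all 6 pollen arrays, 5066 were called higher and 4358 lower, with a median change of 0.045. The shares of 22% and 14.7% thus rest in part on dimmer probes. With the slide as a random block, a setting in which arrays of a slide are taken to vary together, 5744 probes were called. A fit of only the 6 pollen arrays called 9273, with a smallest adjusted p of 0.00604 from limma against 2.43e-08.

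The mock cells changed in the same direction at most of these probes. In mock 13012 probes were called, 40.5%, of which 7917 were higher and 5095 lower at 24 h. With 1 probe per gene 24.4% of genes were higher and 16.5% lower in mock, with a median of 0.13. Mock counts and medians of gene lists are to be read beside these values. A total of 8928 probes were called in the same direction in both, 76.8% of the pollen calls and 68.6% of the mock calls, and 5 in opposite directions. Pearson's r between the changes was 0.86 across the 32100 probes, which are not independent and share the slides of each time. The test of the change in pollen against the change in mock called 0 probes in limma, and the lowest adjusted p was 0.094. Without adjustment 1655 probes, 5.16%, passed 0.05, with a lower change in pollen at 940 and a higher change at 715. That number depended on the setting. It was 409 with the percentile over each array's own probes and 1396 with the dim areas left out. It was 3217 with a block for the replicate numbers of each time and 3885 with array weights. With 1 probe per gene 2.64% of genes passed it with a lower and 2.24% with a higher change in pollen. A change given here for pollen is a change between the times in exposed cells, with the mock change beside it.

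**Figure D1:**
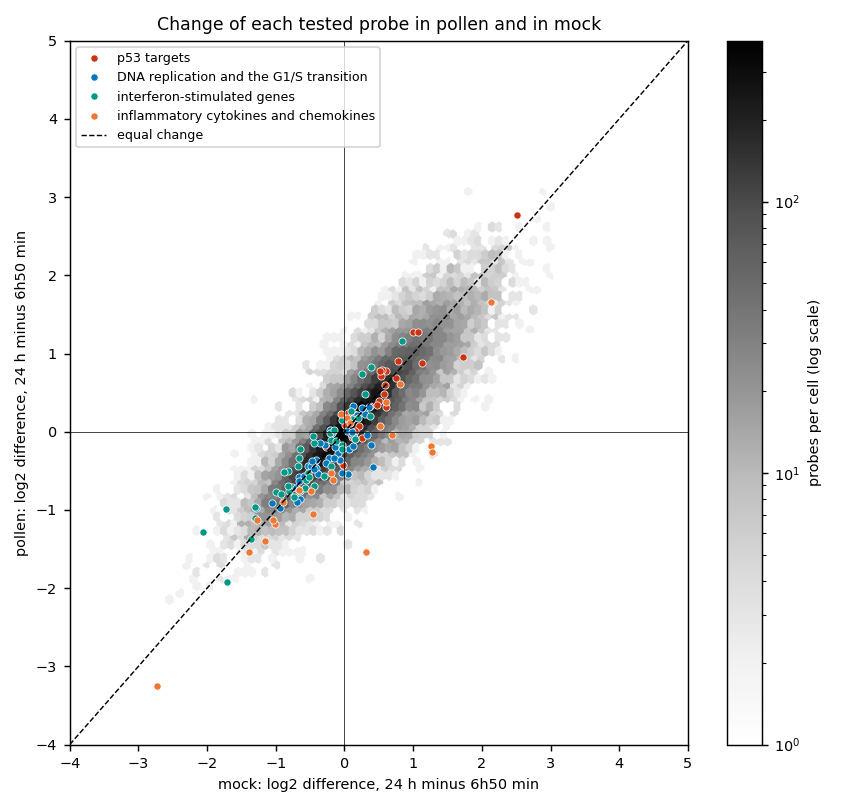
Log2 difference of 24 h minus 6h50 min in mock (x axis) and in pollen (y axis) for the 32100 tested probes, shaded by the number of probes per cell on a log scale, with the genes of 4 lists as coloured points and the line of equal change dashed. The cloud follows the dashed line, with r of 0.86 across probes, the p53 targets lie mostly to the upper right and the interferon-stimulated and replication genes mostly to the lower left.

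Targets of p53, the transcription factor that answers DNA damage and other stress by slowing the cell cycle, were higher at 24 h. Of 28 tested members 14 rose in pollen and 0 fell, with a median log2 difference of 0.37 against 0.12 over all genes. In mock 15 rose and 1 fell, with a median of 0.51. The largest rise in the list was that of ZMAT3, which encodes an RNA-binding protein of the p53 pathway (hg19 chr3:178742161-178742220). It read −3.83, −4.23 and −3.77 on the arrays of 6h50 min and −1.28, −1.14 and −1.09 on those of 24 h. The log2 difference was 2.77 (standard error 0.26, adjusted p = 3.21e-07 from limma), or 6.82-fold. TP53INP1, which acts in autophagy and cell death downstream of p53, went from −0.97, −1.02 and −1.04 to 0.32, 0.18 and 0.32. BTG2, an antiproliferative factor, went from 0.22, 0.07 and 0.31 to 1.53, 1.29 and 1.61. Neither gene's groups overlapped, and both rose by 1.28 on the log2 scale, with standard errors of 0.10 and 0.17. PHLDA3, an inhibitor of AKT signalling, rose by 0.96. MDM2, which marks p53 for degradation, CDKN1A, the p21 inhibitor of cyclin-dependent kinases, and the death receptor FAS, all named after their values were seen, rose by 0.90, 0.88 and 0.71. BAX, which promotes cell death, and GADD45A, a growth arrest gene, were at −0.08 and −0.07 and not called, and a dimmer probe of BAX was at 0.99. With the slide as a random block 8 of the 14 remained called, and PHLDA3 was not among them (adjusted p = 0.077).

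Genes of DNA replication and of the entry into S phase were lower at 24 h. Of 46 tested members 25 fell and 2 rose, with a median of −0.37, and in mock 21 fell and 3 rose, with a median of −0.24. E2F2, a transcription factor that drives S-phase genes, read 3.86, 3.77 and 3.72 at 6h50 min and 2.80, 2.82 and 2.80 at 24 h. Its 3 late values lay close together and all below the early ones, a log2 difference of −0.98 (standard error 0.10, adjusted p = 6.56e-07 from limma). CDC45, a subunit of the replicative helicase, went from 5.42, 5.41 and 5.31 to 4.41, 4.45 and 4.55, again without overlap, a difference of −0.91 (standard error 0.13). The DNA ligase LIG1 fell by 0.90. The 2 members that rose were MCM10 and PCNA, at 0.32 and 0.30, and both calls were lost with the slide as a random block (adjusted p = 0.097 and 0.065) and when 1 pollen array of 24 h was left out, replicate 3 for MCM10 and replicate 2 for PCNA. With that block 18 members were called lower and 0 higher.

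Many of these genes carry in their promoter the letters GCGGGAA, the core of the site that E2F factors bind. Among RefSeq promoters (GRCh38.p14, windows of 300 bases that lie mostly before the start) 39 of the 46 tested members were found, and 18 of these, 46.2%, held the letters on either strand, against 6.56% of all 27305 promoters. They stood in 11 of 23 promoters of genes called lower, in 1 of 2 called higher and in 6 of 14 not called. The promoters of the 4 genes with the largest called falls among those holding the letters before the start are shown over 60 bases, to let the motif be seen in its setting. Each is written 5′ to 3′ along its gene, with the motif in capitals, which read TTCCCGC where it lies on the opposite strand.
LIG1 (chr19:48170424-48170483, minus strand): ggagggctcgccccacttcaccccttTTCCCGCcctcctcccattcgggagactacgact
UHRF1 (chr19:4909441-4909500, plus strand): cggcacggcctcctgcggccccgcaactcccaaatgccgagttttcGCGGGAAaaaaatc
POLA1 (chrX:24693772-24693831, plus strand): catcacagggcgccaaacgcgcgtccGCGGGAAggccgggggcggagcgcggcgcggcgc
RRM1 (chr11:4094436-4094495, plus strand): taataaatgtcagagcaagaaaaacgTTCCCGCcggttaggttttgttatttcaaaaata
LIG1 joins DNA ends on the lagging strand, UHRF1 maintains DNA methylation behind the fork, POLA1 is the catalytic subunit of the priming polymerase and RRM1 the large subunit of the reductase that makes deoxynucleotides. Their log2 differences were −0.90, −0.74, −0.71 and −0.64. UHRF1, POLA1 and RRM1 were chosen for their promoters after their values were seen. CDC45 holds no such letters in this window.

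Replication-dependent histones, which supply S-phase chromatin, moved both ways. Of 48 tested members 14 rose and 8 fell, with a median of 0.08. The rises were led by copies of histone H4. H4C6 (hg19 chr6:26240818-26240877) read 2.55, 2.52 and 2.39 at 6h50 min and 4.5, 4.93 and 4.45 at 24 h, a log2 difference of 2.14 (standard error 0.26, adjusted p = 4.37e-06 from limma). H4C11 rose by 1.95, H4C12 by 2.02 at one probe and 1.59 at the other, and H4C8 by 1.5, while another probe of H4C8 was at −0.70. The 4 members with the largest falls were H2BC6, H3C12, H2BC7 and H2AC4, between −1.26 and −0.71, and with the slide as a random block none of the 4 calls held, with adjusted p between 0.10 and 0.27. H2BC6 also lost its call without replicate 2 of 6h50 min or replicate 1 or 2 of 24 h, and H3C12, whose groups overlapped, without replicate 1 or 3 of either time. That setting left 10 higher and 1 lower. Copies of a histone gene are near identical, so that a probe may read more than its own copy. How far these signals follow the histone RNA of S phase was not tested. In the course over all times H4C6 averaged 4.85, 4.72 and 4.74 in pollen at 10 min, 55 min and 2h25 min and 2.49 at 6h50 min, and its value at 24 h, 4.63, was near those of the early times. In mock the means were 5.06, 4.71 and 4.79 at the early times, 2.47 at 6h50 min and 4.58 at 24 h.

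Mitosis genes changed little as a group. Of 44 tested 7 rose and 6 fell, with a median of −0.06, and 31 were not called. Cyclin CCNA2 and the spindle factor TPX2 rose by 0.52 each and the spindle motor KIF11 by 0.46. The kinase AURKB fell by 0.93 and the kinetochore subunit NDC80 by 0.65. AURKB went from 0.33, 0.58 and 0.20 to −0.42, −0.63 and −0.63, with no overlap. In mock 3 rose and 11 fell, with a median of −0.18. The change in pollen minus that in mock was negative at 9 of the 44, against 49.1% of all genes, with a median of 0.13 and 0 calls. Without the mock arrays that hold dim areas, which leaves only mock replicate 3 at 6h50 min, it was negative at 16, with a median of 0.13. The letters TTTGAA and CCAAT, which are frequent before genes of this phase, stood in 73% and 81.1% of the 37 mitosis promoters found, against 15.4% and 35.7% of all.

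**Figure D2:**
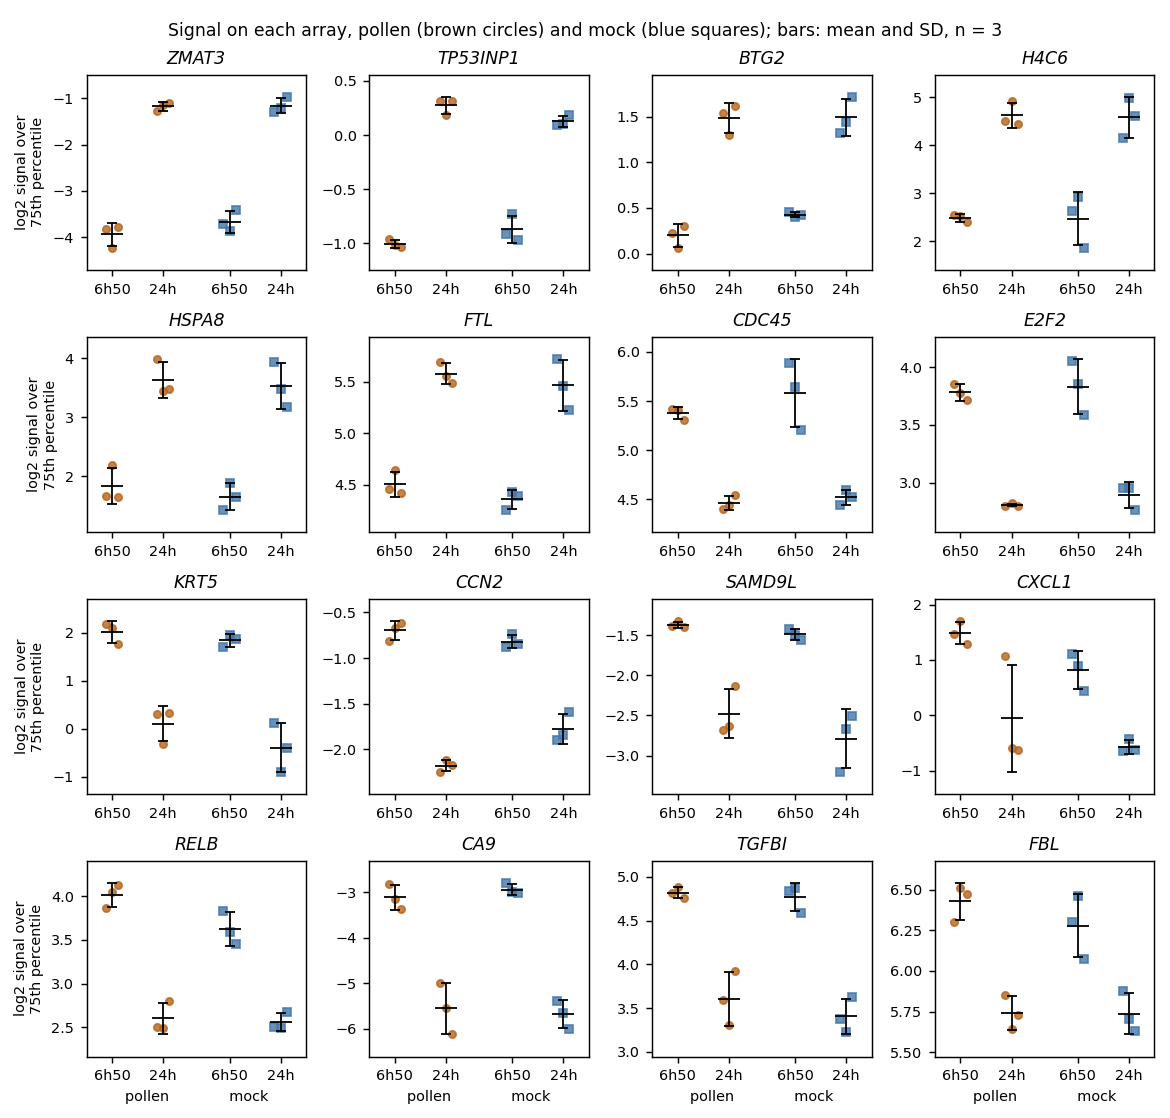
Log2 signal over the 75th percentile (y axis) on each array of 6h50 min and 24 h for 16 genes, pollen as brown circles and mock as blue squares, with the mean and SD of 3 arrays as bars. In all 16 genes the pollen arrays of 24 h lie apart from those of 6h50 min, and the mock arrays move the same way.

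More ribosome biogenesis genes were lower than higher at 24 h in exposed cells. Of 59 tested members 19 fell and 5 rose in pollen, with a median of −0.20, and in mock 12 fell and 10 rose, with a median of 0.04. FBL, the methyltransferase of ribosomal RNA, read 6.30, 6.51 and 6.47 at 6h50 min and 5.85, 5.64 and 5.73 at 24 h, a log2 difference of −0.69 (standard error 0.11, adjusted p = 6.57e-05 from limma) against −0.54 in mock. MYBBP1A, a nucleolar regulator of ribosomal RNA synthesis, fell by 0.89 against −0.52 in mock, and NOP58, a partner of FBL in the same particle, by 0.59 against −0.50. RRP1B and RRN3, which act in ribosomal RNA processing and in the start of its transcription, rose by 0.58 each. TSR1 rose by 0.73 at its brightest probe and had −0.63 at its other, and the median over the probes of RRN3 was −0.23. The difference of the changes was negative at 50 of the 59 genes, with a median of −0.15, against 49.1% of all genes and a median of 0.005, and it was called at 0 of them. Among these genes 2 have a mock value in a dim area. Without the mock arrays that hold the areas, which leaves only mock replicate 3 at 6h50 min, the median difference was −0.17. With normexp background correction and quantile normalization it was −0.085, negative at 39 of the 59 genes. A replicate block within each time, as coded, took the change at the level of replicate 1 and not at the mean of the arrays. Its median of −0.069 in pollen is therefore no check of the change given here. The median of pollen minus mock was 0.11 at 6h50 min and −0.07 at 24 h. With the slide as a random block 13 fell and 4 rose in pollen.

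Amino acid tRNA synthetases, the enzymes that charge tRNAs, had 8 falls and 3 rises among 20 tested, with a median of −0.22. YARS1, WARS1 and QARS1 fell by 0.85, 0.73 and 0.64. The 3 genes called higher, NARS1, LARS1 and IARS1, lost their calls with the slide as a random block, with adjusted p between 0.055 and 0.22, and 4 falls were called there. NARS1 was also lost without any 1 pollen array other than replicate 3 of 6h50 min.

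KRT5 and KRT6B, keratins of basal and of injured epithelium, were lower at 24 h. Of 30 tested genes of keratins and squamous differentiation 6 fell, 1 rose and 23 were not called, with a median of −0.19, against 14.7% of all tested genes called lower. KRT5, the keratin of basal cells (hg19 chr12:52908622-52908681), read 2.19, 2.10 and 1.77 at 6h50 min and 0.31, −0.32 and 0.34 at 24 h. All 3 late values lay more than a log2 unit below the early ones, with a difference of −1.91 (standard error 0.31, adjusted p = 7.67e-05 from limma), or 3.76-fold, and −2.23 in mock. KRT6B, a keratin induced in injured epithelium, fell by 2.90, from −3.24, −3.09 and −3.63 to −5.21, −6.87 and −6.57, and was above background on 2 of the 3 late arrays. The partner of KRT5, KRT14, fell by 2.57 at one probe and had −0.60, not called, at the brighter one. KRT7, a keratin of simple epithelium and an epithelial marker, fell by 0.94, and the crosslinking enzyme TGM2 by 1.46. KRT6A fell by 1.29, with its call at the threshold with the slide as a random block (adjusted p = 0.0502). KRT8 and KRT18, the keratins most widely shared by epithelia, were at 0.03 and −0.18 and not called. KLK10, a secreted protease, was at least 1.44-fold higher at 24 h, being above background on 0 arrays of 6h50 min.

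Junction genes moved both ways. Of 34 tested 9 fell and 7 rose, against 14.7% and 22% of all tested genes called lower and higher. Their median was −0.04, and it was positive under some settings. The gap junction protein GJA1 fell by 1.26, from 0.12, 0.30 and 0.30 to −1.25, −0.61 and −1.21. The desmosome proteins DSG3 and PKP3 fell by 0.93 and 0.88 and the P-cadherin gene CDH3 by 0.77. Occludin, OCLN, of tight junctions, rose by 0.71, and CTNND1, which stabilizes cadherins, by 0.59. TJP3 was called higher as well, but not with the slide as a random block (adjusted p = 0.13) or without replicate 3 of 6h50 min.

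Extracellular matrix and protease genes were lower at 24 h more often than higher. Of 34 tested 15 fell and 4 rose, with a median of −0.40, and in mock 13 fell and 8 rose, with a median of −0.38. COL17A1, the hemidesmosome collagen, read −0.29, 0.08 and −0.59 at 6h50 min and −1.48, −1.31 and −1.0 at 24 h. Its groups did not overlap, with a difference of −1.0 (standard error 0.24, adjusted p = 0.0026 from limma), and its other probe was at 0.25. LAMB1 fell by 0.77 at its brightest probe, while its other probe was at 0.56. The fibrillar collagen COL5A1 rose by 0.79 and the laminin chain LAMC1 by 0.43, the latter not past the threshold in a fit of the 6 pollen arrays alone. With the slide as a random block 8 fell and 2 rose. MMP9 fell by 1.39, a call lost without replicate 2 of 6h50 min or replicate 1 of 24 h.

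Genes that respond to the coactivator YAP and to TGF-beta, both read-outs of mechanical and matrix signals, had 10 falls and 5 rises among 23 tested, with a median of −0.35 and −0.25 in mock. CCN2, a matrix-associated growth factor (hg19 chr6:132270130-132270189), read −0.81, −0.67 and −0.62 at 6h50 min and −2.25, −2.12 and −2.17 at 24 h. The groups were 1.48 log2 units apart (standard error 0.12, adjusted p = 5.49e-08 from limma), against −0.96 in mock, and the difference of the changes, −0.53, was not called. Its mean in pollen was 2.81 at 55 min and 2.23 at 2h25 min, and the value at 24 h was the lowest of the 5 times. ANKRD1, a stretch-responsive nuclear protein, and TGFBI, a matrix protein, fell by 1.32 and 1.21. The ligand TGFB1 rose by 1.02, the feedback inhibitor SMAD7 by 0.70, the receptor AXL by 0.67 and the kinase LATS2, which restrains YAP, by 0.59.

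**Figure D3:**
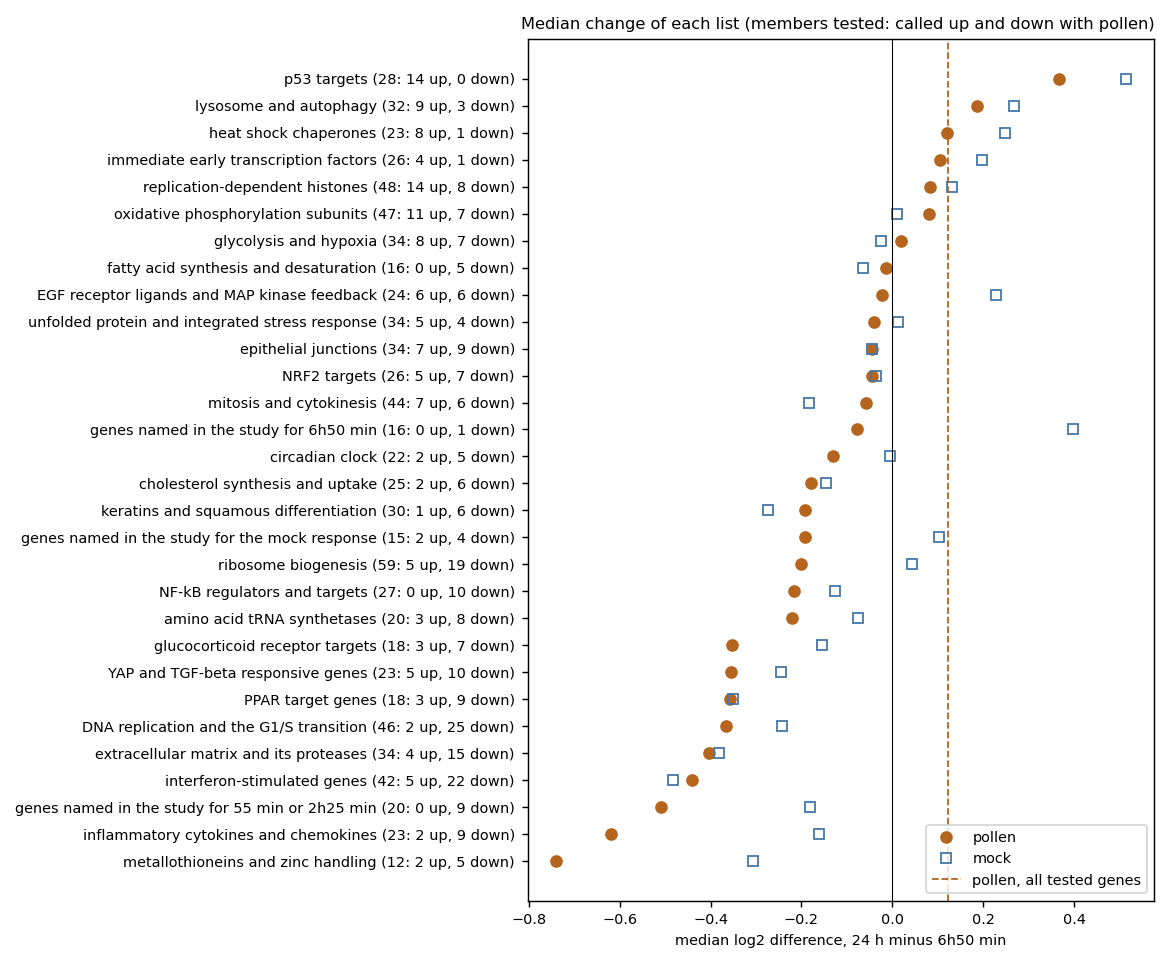
Median log2 difference of 24 h minus 6h50 min (x axis) over the tested members of 30 gene lists, pollen as filled circles and mock as open squares, with the counts of members called with pollen in the labels. The dashed line is the pollen median over all tested genes, 0.12, the p53 targets lie at 0.37 and the cytokines at −0.62.

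More inflammatory cytokines and chemokines were lower than higher at 24 h. Of 23 tested members 9 fell and 2 rose in pollen, with a median of −0.62, and in mock 7 fell and 4 rose, with a median of −0.16. The median in pollen was −0.27 with normexp background correction and quantile normalization, and with the slide as a random block 5 fell and 1 rose. CXCL8, the neutrophil chemoattractant, read −3.65, −4.04 and −3.73 at 6h50 min and −6.30, −7.24 and −7.64 at 24 h. It was above background on 3 arrays of the first time and 0 of the second, so that it was at least 6.37-fold lower (adjusted p = 0.00103 from limma). CXCL1, a related chemokine, read 1.47, 1.70 and 1.30 and then 1.06, −0.59 and −0.63. Replicate 1 of 24 h stood near the early arrays and the other two far below them, and the difference was −1.54 (standard error 0.37, adjusted p = 0.00286), a call lost in a fit of the 6 pollen arrays alone. IL1B, the inflammasome cytokine, went from −2.09, −2.06 and −2.02 to −3.15, −3.46 and −3.73, a difference of −1.39 (standard error 0.23, adjusted p = 0.000117) without overlap. CXCL6, above background on 1 array and then 0, was at −1.53 and lost its call with the slide as a random block (adjusted p = 0.088) and without replicate 2 of 6h50 min or replicate 3 of 24 h.

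IL32, a cytokine of epithelial and T cells, went the other way, from −2.99, −3.24 and −3.16 to −1.26, −1.73 and −1.41, a rise of 1.66, with 2.13 in mock. The chemokine CXCL16 was called at 0.38, but not with the slide as a random block (adjusted p = 0.19) or without replicate 1 or 3 of 6h50 min or replicate 1 or 2 of 24 h. IL6 read 0.44, 0.46 and 0.52 and then 0.51, −0.27 and −0.41, an overlap, and was not called (adjusted p = 0.449). CXCL2 was at −1.13 and not called (adjusted p = 0.0712), although its arrays did not overlap. Of the epithelial alarmins that steer type 2 immunity, IL33 was above background on 1 array of 6h50 min and 2 of 24 h and TSLP on 3 and 1. Neither was called, with adjusted p of 0.411 and 0.129, and IL25 was not above background often enough to be tested. The difference of the changes was negative at 19 of 23 cytokines, with a median of −0.24 and 0 calls. It was the same with the dim areas left out. Without the 2 mock arrays that hold them, which leaves only mock replicate 3 at 6h50 min, it was −0.48. Pollen minus mock had a median of 0.36 at 6h50 min and 0.14 at 24 h.

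**Figure D4:**
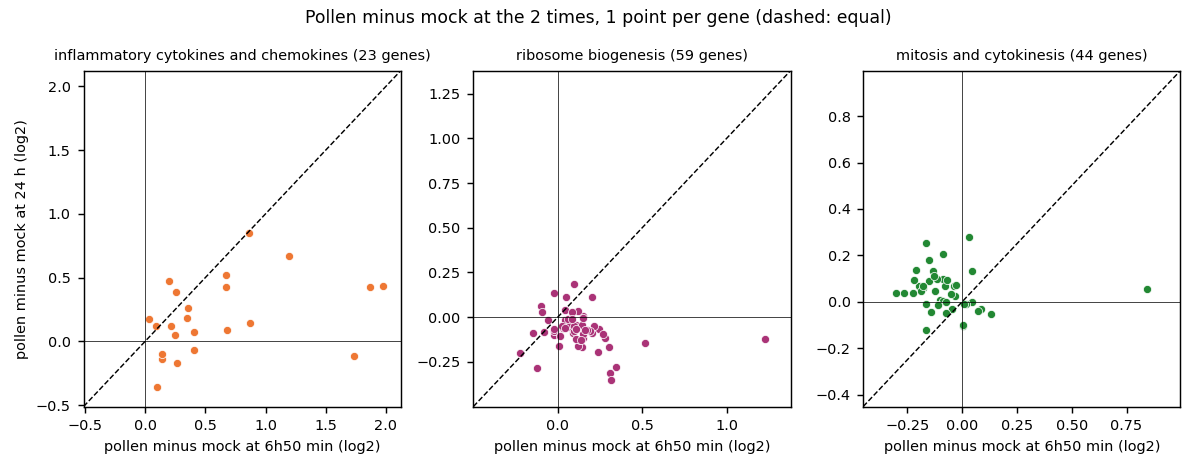
Log2 difference of pollen minus mock at 6h50 min (x axis) and at 24 h (y axis), 1 point per gene, for 23 cytokines and chemokines, 59 ribosome biogenesis genes and 44 mitosis genes, with the line of equal difference dashed. Most cytokine and ribosome biogenesis points lie below the line, 19 of 23 and 50 of 59, and most mitosis points above it, 35 of 44. Of all tested genes 49.1% lie below it. The distance from the line was called at 0 of the genes shown.

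Regulators and targets of NF-kB had 10 falls and 0 rises among 27 tested, with a median of −0.22 and −0.13 in mock. RELB, the subunit of the slower NF-kB pathway (hg19 chr19:45541385-45541444), read 3.87, 4.04 and 4.13 at 6h50 min and 2.51, 2.49 and 2.81 at 24 h. The 3 late arrays were all lower, by 1.41 log2 units (standard error 0.23, adjusted p = 8.17e-05 from limma), and in mock the difference was −1.07. RELB had averaged 2.77 in pollen at 55 min and 3.6 at 2h25 min, and 6h50 min was the highest of the 5 times. TNFAIP2, a TNF-induced gene, fell by 1.38 and the inhibitor TNIP2 by 0.70. BCL3, a modifier of NF-kB, was called at −0.73, but not with the slide as a random block (adjusted p = 0.065). NFKBIA, the inhibitor IkB-alpha, fell by 0.61, a call lost with the slide as a random block and without any 1 of the 6h50 min arrays or replicate 2 of 24 h. TNFAIP3, ICAM1 and RELA, at −0.14, −0.11 and −0.11, were not called. With the block 5 falls remained in the list.

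Immediate early transcription factors had 4 rises and 1 fall among 26 tested, with a median of 0.10, and of 0.01 with the slide as a random block. FOS, EGR1 and JUNB were at 0.31, −0.05 and −0.10 and not called. KLF4, which also guides epithelial differentiation, rose by 0.91, from −1.60, −1.75 and −1.95 to −0.73, −0.90 and −0.94. In mock 10 rose, JUN among them at 1.12 against 0.10 in pollen, and both early mock values of JUN on replicates 1 and 2 lie in a dim area. Among EGF receptor ligands and MAP kinase feedback genes 6 rose and 6 fell of 24, against 22% and 14.7% of all tested genes. With the slide as a random block 0 rose and 2 fell. The receptor EGFR fell by 0.70 and the ETS factor ETV4 by 1.18, against −0.76 and −0.23 in mock. DUSP1, a phosphatase that ends MAP kinase signals, rose by 1.11, but not past the threshold with the slide as a random block (adjusted p = 0.086) or without replicate 2 of 24 h.

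The genes that the study names for the early times, 55 min and 2h25 min, were chosen on these samples and are no independent evidence of a direction. Of the 20, 9 fell and 0 rose between 6h50 min and 24 h, with a median of −0.51, and in mock 5 fell and 2 rose, with a median of −0.18. Besides CCN2 and IL1B these included the coagulation factor F3 at −0.64, the guanylate-binding protein GBP1 at −0.72 and the kinase MAP2K3 at −0.73, with 1.91 at another of its probes. EREG, IER3, DUSP6 and PIM1 were called lower as well, and their calls were lost with the slide as a random block. IER3 also lost its call without replicate 2 or 3 of either time and DUSP6 without replicate 2 of 6h50 min. Of the 16 genes named for 6h50 min 1 fell, IL4R, at −0.76, and 0 rose, with a median of −0.08. The other probes of IL4R were at 1.03 and 1.45. In mock 7 of these 16 rose, with a median of 0.40, and 9 of the 16 have a mock value in a dim area. The median difference of the changes was −0.49 with all spots, −0.13 with the areas left out and −0.04 without the 2 mock arrays. Of 15 genes named for the response to mock exposure 4 fell and 2 rose in pollen, with a median of −0.19, and in mock 3 rose and 0 fell.

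Interferon-stimulated genes, the antiviral programme, were lower at 24 h. Of 42 tested members 22 fell and 5 rose, with a median of −0.44, and in mock 21 fell and 2 rose, with a median of −0.48. SAMD9L, an antiviral and growth-restraining protein (hg19 chr7:92760219-92760278), read −1.39, −1.33 and −1.40 at 6h50 min and −2.68, −2.63 and −2.13 at 24 h. The early arrays lay close together and the late ones all below them, by 1.11 log2 units (standard error 0.15, adjusted p = 1.38e-05 from limma). RSAD2, viperin, was above background on 3 and then 0 arrays and at least 1.75-fold lower. IFI44L, named after its values were seen, fell by 0.96. OAS2 fell by 1.38 at its brightest probe and had 0.99 and 1.03 at its others, and CMPK2, at −1.28, lost its call with the slide as a random block (adjusted p = 0.078). TRIM22, a restriction factor, rose by 1.16 from −2.38, −2.49 and −2.28 to −1.53, −1.16 and −0.99, and the ligase HERC5 by 0.74. MX2 and ISG15 were called at 0.83 and 0.48, and the calls were lost with the block and when 1 pollen array was left out, any of 5 for MX2 and replicate 2 of 24 h for ISG15. The block left 11 falls and 2 rises. SAMD9L was between −1.77 and −1.33 at the 4 times up to 6h50 min in pollen.

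Targets of the lipid sensors of the PPAR family had 9 falls and 3 rises among 18 tested, with a median of −0.36 and −0.35 in mock. ANGPTL4, an inhibitor of lipoprotein lipase (hg19 chr19:8439197-8439256), read 1.34, 1.78 and 1.82 at 6h50 min and −0.56, −0.32 and 0.22 at 24 h. It fell by 1.86 (standard error 0.34, adjusted p = 0.000249 from limma), and in mock the difference was −0.55 and not called. It was higher in pollen than in mock by 1.99 at 6h50 min (adjusted p = 0.0295) and by 0.67 at 24 h, not called, and the difference of the changes, −1.31, was not called. In pollen its mean was −0.33 at 10 min and 3.03 at 2h25 min, and at 24 h, with −0.22, it was near the level of 10 min. The receptor PPARA rose by 1.14 at its brightest probe, with 0.06 at its other. TXNIP, an inhibitor of glucose uptake, and ACSL5, which activates fatty acids, were called lower at −0.99 and −0.78, and both calls were lost with the slide as a random block, which left 2 falls and 1 rise. TXNIP was also lost without replicate 2 of either time, and ACSL5 without replicate 3 of 6h50 min or replicate 1 or 2 of 24 h.

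Hypoxia and glycolysis genes had 8 rises and 7 falls of 34, against 22% and 14.7% of all tested genes. Their median of 0.02 took either sign among the settings. CA9, the carbonic anhydrase that tumour and hypoxic cells carry at their surface, read −2.83, −3.14 and −3.38 and then −4.99, −5.55 and −6.11. It fell by 2.44 (standard error 0.26, adjusted p = 9.01e-07 from limma), 5.41-fold, and by 2.73 in mock. The hexokinase HK2, the collagen hydroxylase P4HA1 and the kinase PDK1, which inhibits pyruvate dehydrogenase, fell by 0.90, 0.69 and 0.64. KDM3A, MXI1 and BHLHE40, also induced by hypoxia, rose by 0.84, 0.83 and 0.77. Subunits of oxidative phosphorylation had 11 rises and 7 falls of 47, near the 22% and 14.7% of all tested genes, with a median of 0.08. NDUFA6, COX6B1 and NDUFA2 rose by 0.72 each, and NDUFS3 and NDUFV1 fell by 0.58 and 0.42.

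Genes of cholesterol synthesis and uptake had 6 falls and 2 rises of 25, with a median of −0.18. ACAT2, which starts the pathway, fell by 0.86 and SC5D, a late desaturase, rose by 0.94, both without overlap. HMGCS1, which acts early in the pathway, was at 0.00 and not called. Among 16 genes of fatty acid synthesis 5 fell and 0 rose, with a median of −0.02. The regulator SREBF1 fell by 0.74 at its brightest probe, with 0.42 at its other, and the desaturase FADS1 and the carboxylase ACACA fell by 0.65 and 0.52.

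Heat shock chaperones had 8 rises and 1 fall of 23, with a median of 0.12, the same as over all genes, and in mock 11 rose and 0 fell. HSPA8, the constitutive chaperone of the cytosol, read 1.66, 2.18 and 1.65 and then 3.98, 3.44 and 3.48. It rose by 1.80 at this probe (standard error 0.23, adjusted p = 6.17e-06 from limma) and had −0.02 at its other. HSPA1A and HSPA1B, which are near-identical copies and may share signal, rose by 1.31 and 0.83, and the cochaperone DNAJB1 by 1.01, with 1.92 in mock, where its values on replicates 1 and 2 of 6h50 min lie in a dim area. Targets of the oxidant sensor NRF2 had 5 rises and 7 falls of 26. The ferritin light chain FTL, which stores iron, went from 4.46, 4.64 and 4.42 to 5.69, 5.55 and 5.49, a rise of 1.07 (standard error 0.12, adjusted p = 1.5e-06) seen also at its other 2 probes, 0.95 and 1.0. Thioredoxin, TXN, rose by 0.50. The aldo-keto reductases AKR1B10 and AKR1C1 and the heme oxygenase HMOX1 were called lower at −1.01, −0.96 and −0.73. Their calls were lost with the slide as a random block, with adjusted p between 0.12 and 0.21. They were lost as well without replicate 1 of 24 h for both reductases, without replicate 3 of 6h50 min or replicate 2 of 24 h for AKR1B10, and without replicate 1 or 2 of 6h50 min or replicate 3 of 24 h for HMOX1.

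Metallothioneins and zinc handling genes, which bind and move zinc, had 5 falls and 2 rises of 12, with a median of −0.74 and −0.31 in mock. MT1X went from 2.24, 2.71 and 2.69 to 1.25, 0.76 and 1.64, a fall of 1.33 (standard error 0.31, adjusted p = 0.00234 from limma), and MT1F fell by 0.83. MT2A, a widely expressed member, was at −0.73 and not called. In mock it was at 0.03, where its values on replicates 1 and 2 of 6h50 min lie in a dim area. These genes lie in a family of near-identical copies. The block left 2 falls and 0 rises. The replicate block within each time, which took the change at the level of replicate 1, gave a median of −0.14 and is no check here.

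The unfolded protein and integrated stress response had 5 rises and 4 falls of 34, against 22% and 14.7% of all tested genes. HSPA5 and ATF4 were at 0.49 and −0.06 and not called. The lipoprotein receptor VLDLR rose by 1.05 and the secreted factor STC2 by 0.71, and ASNS, which makes asparagine, fell by 0.52, with 0.42 at another of its probes. Lysosome and autophagy genes had 9 rises and 3 falls of 32, with a median of 0.19 and 0.27 in mock. The mitophagy receptor BNIP3L rose by 0.66 and the autophagy scramblase ATG9B by 0.97. The lipid transfer protein ATG2A fell by 0.85 and TFEB, which switches on lysosomal genes, by 0.79 at its brightest probe, with 0.42 at its other.

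Clock genes keep a daily rhythm through feedback among their own products, and glucocorticoids can set its phase. Of 22 clock genes 5 fell and 2 rose, with a median of −0.13. BMAL1, an activator of the clock, fell by 0.49, while the median over its probes was 0.25, and its target NR1D1 was called at 0.60 but not with the slide as a random block (adjusted p = 0.10) or without replicate 2 of 6h50 min or replicate 1 of 24 h. PER1 and CLOCK, at −0.10 and −0.16, were not called, and another probe of CLOCK was at 1.04. PER2 was at −0.59 in pollen and 0.59 in mock, where its values on replicates 1 and 2 of 6h50 min lie in a dim area, and its pollen call was lost whichever pollen array was left out. Of 18 glucocorticoid receptor targets 7 fell and 3 rose, with a median of −0.35, and with the slide as a random block 1 fell and 2 rose. ZBTB16 rose by 0.81, TAT was at least 2.80-fold higher, being above background on 0 and then 3 arrays, and FKBP5, at −0.29, was called lower.

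The genes with the largest changes among those above background on all 6 pollen arrays were in part long noncoding RNAs and genes of low signal. Among the rises were ACTL8, an actin-like gene of the testis, which went from −4.65, −4.21 and −3.22 to −0.06, −0.37 and −0.32, a difference of 3.78 with 0.71 at its other probe. LCN2, lipocalin 2, which withholds iron from bacteria, went from −1.08, −1.69 and −0.97 to 1.16, 0.60 and 0.83. It rose by 2.11 (standard error 0.33, adjusted p = 5.49e-05 from limma). In mock LCN2 was at 2.04, where its values on replicates 1 and 2 of 6h50 min lie in a dim area. PDGFRB, a receptor of mesenchymal cells, rose by 2.19 at one probe and had −0.40 at the brighter one. SMAD1-AS1 rose by 2.51, and its early values, −6.63, −3.50 and −4.13, were spread widely. In mock it was at 0.71, where its values on replicates 1 and 2 of 6h50 min lie in a dim area. Its call was lost in a fit of the 6 pollen arrays alone.

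Among the falls were STRA6, the retinol transporter, at −2.51, FAP, a protease of activated fibroblasts, at −2.12, and CILP, a matrix protein, at −2.09. CCAT1, a long noncoding RNA named for colon cancer, read −1.0, −1.33 and −0.89 and then −2.99, −3.33 and −2.93. It fell by 2.01 (standard error 0.22, adjusted p = 1.39e-06 from limma), and in mock by 0.64. The difference of the changes, −1.37, had an adjusted p of 0.511.

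**Figure D5:**
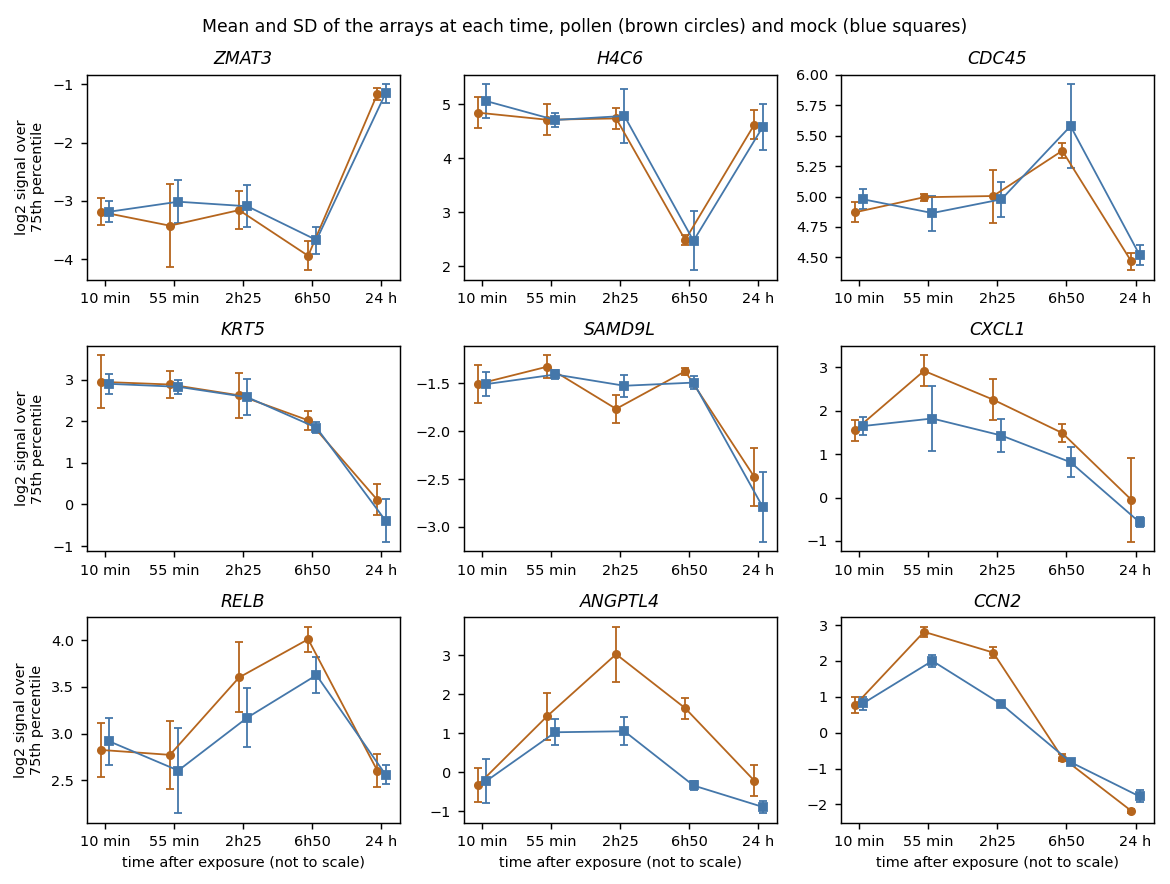
Mean log2 signal over the 75th percentile (y axis) at the 5 times of the series (x axis, not to scale) for 9 genes, pollen as brown circles and mock as blue squares, with the SD of the arrays at each time as bars. In pollen H4C6 is lowest at 6h50 min, at 2.49, RELB is highest there, at 4.01, and KRT5, CCN2 and SAMD9L are lowest at 24 h.

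Where the 2 times lay in the whole course differed between probes. Of the 11622 called probes 3024 had a pollen mean at 6h50 min outside the range of the 3 earlier times and one at 24 h inside it. At 1810 probes it was the mean at 24 h that lay outside, as for SAMD9L, with −1.37 at 6h50 min and −2.48 at 24 h against earlier means between −1.77 and −1.33. At 6731 probes both lay outside. KRT5 was one of these, with 2.95, 2.88 and 2.62 at the early times, 2.02 at 6h50 min and 0.11 at 24 h. At 57 probes neither did, as for ANGPTL4. These counts describe means of arrays that lie on different slides.

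The probes with the smallest p in the test of the change in pollen against that in mock were those of ENST00000533576, LOC100130548, KRT38, B4GALT1-AS1, PHEX and TMEM63C, with adjusted p from 0.094 to 0.119. LOC100130548, B4GALT1-AS1 and PHEX were above background on 0 of the 6 pollen arrays. KRT38, a hair keratin, was above background on 3 pollen arrays of 6h50 min and 0 of 24 h, at least 3.01-fold lower. Its log2 difference was −2.31 in pollen and −3.91 in mock. TMEM63C, an ion channel gene, read −2.76, −2.90 and −3.06 and then −2.84, −2.91 and −2.93 in pollen, a difference of 0.02, against −0.83 in mock. CHMP4B, a gene of membrane scission named after its values were seen, was called in this test with the dim areas left out, at −1.38 (adjusted p = 0.000222 from limma). The same probe was called with normexp background correction and quantile normalization, at −1.06 (adjusted p = 0.000925 from limma). It was called as well with the deposited log2 values, at −1.04 (adjusted p = 0.00503 from limma).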

How the data were processed

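BEAS-2B RNA was read on 30 one-colour Agilent arrays, 6 of them from pollen-exposed cells at 6h50 min and 24 h. The authors deposited the spot intensity that Agilent Feature Extraction 11.0.1.1 wrote, and a table of log2 values used here as an alternative. The column of this table for pollen 55 min replicate 1 had a rank correlation of 0.0006765 with its own array and was left out, and the others had 0.919 to 0.982. The log2 of the deposited processed intensity minus the 75th percentile of each array, over the 33873 probes shared by both array designs, was fitted with limma 3.58.1 in R 4.3.3 as 10 group means over 30 arrays. Tested were the 32100 probes that every array of 1 group or more found well above background, with Benjamini-Hochberg adjustment, and a gene's value is that of its brightest probe. "At least N-fold" sets the brighter group's mean against the dimmest signal well above background, or the dim probe's own where higher. Probe coordinates are those of the files (hg19). The members and gene lists were chosen with earlier results of these data known. Named are the 12 largest rises and falls above background without overlap (in part), up to 4 called members per list and direction, the genes the study names, and the 6 smallest p of the difference. Other list members (such as KRT7, FOS, JUN, HMGCS1 and HSPA5) were chosen after their values were seen. The scripts were tested on simulated data. The number of arrays limits the precision. Some genes of the lists are counted but not reported here by name.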

Additional observations from a re-analysis of the deposited data

How the results depend on the processing

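Of 11622 pollen calls, 3366 were at least 2-fold. The count was 5744 with the slide as a random block, which shared 5742 calls with the fit reported, and 8762 to 10439 without 1 pollen array. It was 2618 with the percentile over each array's own probes, where 1 array of the other design was scaled over fewer probes than the rest. Replicate numbers do not pair arrays across the times (correlations of deviations 0.038, −0.235 and −0.031 in pollen). Between mock and pollen of 1 time they were 0.42, 0.203 and 0.193 at 24 h and 0.062, 0.089 and 0.053 at 6h50 min, over 0.1 at 24 h alone. A replicate block gave 11990 calls over all arrays, 9888 within each time and 3700 over only the arrays compared. The block within each time, as coded, took the change at the level of replicate 1. It is therefore no check of the pollen or mock counts. The 13012 mock calls became 3603, 6922, 13324, 12026 and 6773 in the same settings, 4119 at 2-fold, 6298 without the arrays with dim areas and 10348 to 11890 without 1 mock array. The test of the difference, with 0 calls, gave 1 with normexp, with quantile normalization, with the deposited table, without the 55 min pollen arrays and with the areas left out, 161 with array weights, 42 without the mock arrays with dim areas, and 0 to 268 without 1 array, the most without mock replicate 3 of 6h50 min. Of 234 named results 206 were called, 130 of them also with the slide as a random block. In every setting, the block within each time and the own percentile included, 51 were called. The direction turned at 7. With the probe of lowest p TSR1 was at −0.63 and PLIN2 at −1.20, and with the median over probes RRN3 was at −0.23, PLIN2 at −0.38, BMAL1 at 0.25, IL4R at 1.03, OAS2 at 0.99 and CEP55 at 0.053. Time and slide cannot be told apart in any change within pollen or within mock, and probes near background have only bounds.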
